A study of Homo sapiens with 6 samples.

Results

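The 10 genes described here encode the NF-kB subunits NFKB1, NFKB2, REL, RELA and RELB, the inhibitors NFKBIA, NFKBIB and NFKBIE, the feedback enzyme TNFAIP3 and the secreted target CXCL8. They were chosen by gene name, taking for each name the identifier with the highest mean FPKM, and all 10 were found among the 58825 identifiers of the table and among the 17774 genes tested. PANC-1 cells are an established line from a human pancreatic carcinoma. Poly(A) RNA was sequenced from 3 samples exposed for 24 h to 40 μM maslinic acid (MA, a plant triterpenoid found in olives), called MA PANC-1 1 to 3, and from 3 samples at 0 μM, called PANC-1 1 to 3. The controls are labelled untreated, while the study's methods name DMSO as the vehicle for its cell treatments in general, and the labels name no agent that activates NF-kB in either group. All samples come from 1 cell line in culture, so the p-values below measure only the spread between these cultures. The total of the estimated counts lay between 56978375 and 63984133 in the MA samples and between 59422939 and 70275355 in the untreated samples, with the lowest total in MA PANC-1 1 and the highest in PANC-1 1. These totals exceed the valid reads that the study lists per sample, so a count printed here is an estimate and not a number of reads.

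NF-kB transcription factors are dimers of Rel family subunits. In resting cells IkB proteins hold the dimers in the cytoplasm, until the IkB kinase phosphorylates IkB and marks it for degradation. Freed dimers enter the nucleus and switch on genes for chemokines, survival proteins and their own inhibitors, among them NFKBIA and TNFAIP3, so that the signal is cut off again. In pancreatic carcinoma the pathway is known for its frequent activity. Transcript levels do not show the location or the modification of these proteins, which were not measured here.

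Markers fixed for the line and for other cell types were read first. The epithelial keratins KRT8 (141 to 225 FPKM) and KRT18 (278 to 338 FPKM) and the mesenchymal filament VIM (521 to 754 FPKM) were abundant in all 6 samples, whereas KRT19 and EPCAM, which are also ductal markers, stayed at or below 0.132 FPKM. Of 8 leukocyte markers 1 reached the level needed for testing, CD68 (25.6 to 40.9 FPKM), while CD3E had no count and PTPRC did not exceed 0.012 FPKM. The leukocyte markers summed to 26.2, 37.3 and 27.5 FPKM in the MA samples and to 25.8, 41.2 and 26.8 FPKM in the untreated samples, so nearly all of the sum was CD68. Fibroblast markers summed to 13.8 to 25.6 FPKM, led by COL3A1, with DCN at or below 0.011 FPKM. Endothelial markers summed to at most 0.58 FPKM and 6 of 7 acinar and endocrine genes had no count. On the first principal component, which held 26.4% of the variance of all tested genes, MA PANC-1 2 lay at 73.6 and MA PANC-1 1 at 29.5, and the 4 other samples lay between -44.9 and -16.2. The MA samples were thus spread over this component, with MA PANC-1 2 farthest from the untreated samples and MA PANC-1 3 next to them. RELA and RELB also showed PANC-1 3 apart from the other untreated samples. Where leaving out 1 sample changed a call at an unadjusted p under 0.05, or the value by much, this is stated below.

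**Figure D1:**
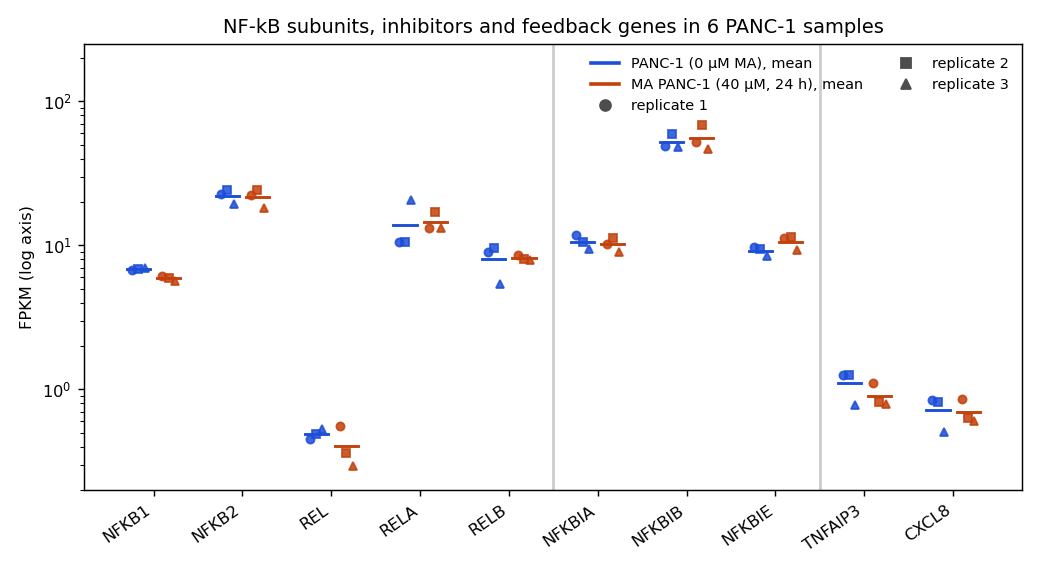
FPKM of the 10 genes on a log axis in the 3 untreated (blue) and 3 MA treated (orange) PANC-1 samples, with marker shapes for replicate numbers and bars for group means. NFKBIB lies highest at 46.7 to 68.5 FPKM and REL lowest at 0.29 to 0.56 FPKM, and NFKB1 is the one gene whose MA points all lie below the untreated points.

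FPKM is the read estimate per kilobase of transcript and scaled to sequencing depth, and it allows levels to be compared between genes. The mean over the 6 samples ran in the order NFKBIB (53.9 FPKM), NFKB2 (21.8), RELA (14.2), NFKBIA (10.4), NFKBIE (9.91), RELB (8.11), NFKB1 (6.38), TNFAIP3 (1.0), CXCL8 (0.712) and REL (0.449), a span of 120-fold. The ranges over the samples did not overlap between NFKBIB and NFKB2 or between NFKB1 and TNFAIP3, and every other pair of neighbours in this order overlapped. Among all tested genes NFKBIB lay at the 96.1st percentile of mean FPKM, NFKB2 at the 89.2nd and REL at the 24.0th.

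None of the 10 genes passed any threshold of the comparison between MA PANC-1 and PANC-1. By edgeR's quasi-likelihood test with Benjamini-Hochberg adjustment over all 17774 genes, 0 of 10 had an adjusted p under 0.05, against 0.0394% of all genes tested (7 genes). By the thresholds of the study, a change of 2-fold or more in either direction with an unadjusted p under 0.05, 0 were higher and 0 lower, against 0.675% (120 genes) and 1.25% (222 genes) of all. These counts come from the edgeR fit made here, and the study itself reported fewer genes in each direction. At an unadjusted p under 0.05 alone, again 0 were higher and 0 lower in edgeR, against 5.37% (954 genes) and 5.86% (1041 genes), and DESeq2 called 0 of 10 at an adjusted p under 0.05. In 0 genes all MA samples lay above all untreated ones (8.79% of all genes), and in 1, NFKB1, all lay below (11.1%). The median log2 fold change of the 10 genes was -0.0059, beside -0.0017 for all genes tested, with 5 estimates above and 5 below 0. The 95% intervals of the 10 log2 fold changes reached from -0.85 at their lowest (REL) to 0.77 at their highest (RELA), so each interval lay inside a change of 2-fold in either direction. In such bulk samples fewer cells with a transcript and less transcript per cell cannot be told apart.

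NFKB1 encodes p105, the precursor of the p50 subunit, which pairs with RELA in the classical dimer. It lies at chr4:102501331-102617302 on the plus strand (positions as in the deposited table, which overlap the GRCh38 genes of GENCODE release 29). Its FPKM was 6.16, 5.89 and 5.61 in MA PANC-1 1, 2 and 3 and 6.77, 6.88 and 7.00 in PANC-1 1, 2 and 3. The 3 MA samples were all lower than the 3 untreated samples, which stood close together with a coefficient of variation of 1.67%. The log2 fold change was -0.19 ± 0.10 (SE, n = 3 per group, 95% interval -0.42 to 0.05), with an edgeR adjusted p of 0.50 and an exact two-sided permutation p of 0.1, the smallest that 3 against 3 samples allow. Without MA PANC-1 2 it was -0.23 at an unadjusted edgeR p of 0.0389 and an adjusted p of 0.472.

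NFKB2 (chr10:102394110-102402524, plus strand) encodes p100, the precursor of p52 and, unprocessed, an inhibitor of RELB dimers in the alternative pathway. Values of 22.2, 24.1 and 18.2 FPKM in MA PANC-1 stood against 22.7, 24.3 and 19.3 FPKM in PANC-1. The groups overlapped almost completely, and replicate 2 was highest and replicate 3 lowest in each. With a log2 fold change of 0.0032 ± 0.15 (SE, 95% interval -0.36 to 0.37) and an edgeR adjusted p of 0.995, the sign of the difference turned with the normalization and with single samples.

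RELA (chr11:65653597-65663090, minus strand) encodes p65, the subunit that carries the activation domain of the classical dimer. It measured 13.2, 17.0 and 13.3 FPKM in MA PANC-1 and 10.5, 10.6 and 20.7 FPKM in PANC-1. PANC-1 3 was the highest of all 6 samples, 1.97 times the mean of the other untreated samples, and both of those were lower than every MA sample. The untreated coefficient of variation was therefore 42.2%, and the log2 fold change was 0.10 ± 0.28 (SE, 95% interval -0.57 to 0.77, edgeR adjusted p 0.912). Without PANC-1 3 it was 0.50 at an unadjusted edgeR p of 0.0303 and an adjusted p of 0.721, and without MA PANC-1 2 it was -0.08.

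RELB (chr19:45001449-45038198, plus strand) encodes the subunit that pairs with p52 in the alternative pathway. MA PANC-1 held 8.62, 8.09 and 7.89 FPKM and PANC-1 held 9.02, 9.63 and 5.38 FPKM. Here PANC-1 3 was the lowest sample, at 0.576 times the mean of the other untreated samples, the opposite of RELA. All MA samples lay between PANC-1 3 and the other untreated samples, and the log2 fold change was 0.07 ± 0.22 (SE, 95% interval -0.45 to 0.59, edgeR adjusted p 0.924), or -0.15 without PANC-1 3.

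REL (chr2:60881521-60931610, plus strand) encodes c-Rel, a subunit best known from lymphocytes. Its mean FPKM was the lowest of the 10, with 0.56, 0.36 and 0.29 FPKM in the MA samples and 0.45, 0.49 and 0.53 FPKM in PANC-1. The estimated counts were 500, 366 and 270 in the MA samples and 500, 510 and 496 in PANC-1, so its low rank holds per length. MA PANC-1 1 was the highest sample and the other MA samples were the lowest. The log2 fold change was -0.24 ± 0.26 (SE, 95% interval -0.85 to 0.36, edgeR adjusted p 0.726). It was -0.52 (unadjusted edgeR p 0.0594) without MA PANC-1 1 and -0.046 without MA PANC-1 3. The transcript AC010733 overlaps REL on the same strand, with 20 to 477 counts per sample. Reads could be shared between them and make the value of REL less certain, which was not tested.

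The balance among the subunits was compared as shares of their summed FPKM. Together the 5 subunits held 50.5 ± 5.10 FPKM in MA PANC-1 and 51.4 ± 1.82 FPKM in PANC-1 (SD, n = 3 each). NFKB2 was the largest share in 5 of 6 samples, 42.5% ± 1.95 in MA PANC-1 and 43.1% ± 5.72 in PANC-1, and RELA exceeded it in PANC-1 3 alone, at 39.2% against 36.5%. The NFKB1 share was 11.7% ± 0.961 in MA PANC-1 and 13.4% ± 0.268 in PANC-1 without overlap of the groups, at an exact two-sided permutation p of 0.1 and a Benjamini-Hochberg value of 0.880 over the 11 shares and sums compared. RELA held 28.7% ± 2.42 and 26.9% ± 10.6, RELB 16.3% ± 1.53 and 15.7% ± 4.77, and REL 0.802% ± 0.261 and 0.956% ± 0.0422.

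**Figure D2:**
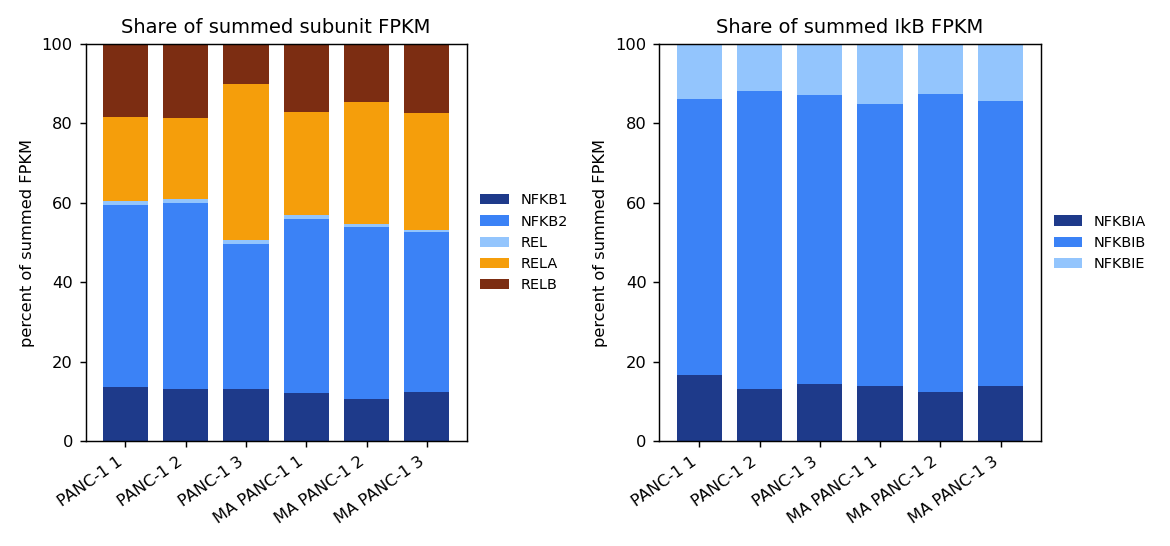
Stacked bars of the share of each gene in the summed FPKM of the 5 Rel subunits (left) and of the 3 IkB genes (right), one bar per sample, in percent. PANC-1 3 differs from the other bars by a RELA share of 39.2% and a RELB share of 10.2%, and NFKBIB makes up 69.5% to 75.1% of the IkB sum in every sample.

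NFKBIA (chr14:35401511-35404746, minus strand) encodes IkB-alpha, the inhibitor that NF-kB itself induces and that is widely read as a sign of NF-kB activity. Its FPKM was 10.3, 11.2 and 9.0 in MA PANC-1 and 11.7, 10.5 and 9.48 in PANC-1. The groups interleaved, with PANC-1 1 highest and MA PANC-1 3 lowest. A log2 fold change of -0.015 ± 0.15 (SE, 95% interval -0.37 to 0.34, edgeR adjusted p 0.977) corresponds to a 0.990-fold level, with bounds of 0.775-fold and 1.26-fold.

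NFKBIB (chr19:38899700-38908893, plus strand) encodes IkB-beta, an inhibitor that is replaced more slowly after degradation. It was the most abundant of the 10 transcripts, with 52.4, 68.5 and 46.7 FPKM in the MA samples and 49.0, 59.1 and 48.0 FPKM in PANC-1. Replicate 2 was the highest in both groups, and MA PANC-1 3 was the lowest sample. The log2 fold change was 0.15 ± 0.18 (SE, 95% interval -0.29 to 0.58, edgeR adjusted p 0.777), and -0.07 without MA PANC-1 2. SIRT2 overlaps NFKBIB on the opposite strand with 8904 to 15323 counts per sample, and although the libraries marked strand, whether the counting used it is not given in the sources used here.

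NFKBIE (chr6:44258166-44265788, minus strand) encodes IkB-epsilon, a further inhibitor that responds late to NF-kB. Levels were 11.2, 11.4 and 9.24 FPKM in MA PANC-1 and 9.75, 9.36 and 8.48 FPKM in PANC-1. MA PANC-1 1 and 2 were above all untreated samples, and MA PANC-1 3 lay within their range. Its log2 fold change of 0.25 ± 0.14 (SE, 95% interval -0.08 to 0.58, edgeR adjusted p 0.518) was the highest of the 10, and without MA PANC-1 3 it was 0.36 at an unadjusted edgeR p of 0.0270 and an adjusted p of 0.234.

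The summed FPKM of the 3 inhibitors was 76.6 ± 13.3 in MA PANC-1 and 71.8 ± 6.62 in PANC-1 (SD, n = 3 each). NFKBIB accounted for 72.6% ± 2.21 and 72.4% ± 2.68 of it, NFKBIA for 13.4% ± 0.909 and 14.8% ± 1.71, and NFKBIE for 14.0% ± 1.33 and 12.9% ± 0.988. The ratio of the inhibitor sum to the subunit sum was 1.46, 1.64 and 1.43 in MA PANC-1 and 1.43, 1.52 and 1.25 in PANC-1, overlapping between the groups with an exact two-sided permutation p of 0.4 (Benjamini-Hochberg 0.880 over the 11 comparisons).

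TNFAIP3 (chr6:137867214-137883312, plus strand) encodes A20, a ubiquitin-editing enzyme that NF-kB induces and that shuts off signalling from TNF and Toll-like receptors. It measured 1.10, 0.82 and 0.79 FPKM in MA PANC-1 and 1.26, 1.26 and 0.78 FPKM in PANC-1. PANC-1 1 and 2 were the highest samples, but PANC-1 3 was as low as the lowest MA sample. The log2 fold change was -0.25 ± 0.25 (SE, 95% interval -0.84 to 0.35, edgeR adjusted p 0.717). Without PANC-1 3 it was -0.44 (unadjusted edgeR p 0.104), and it was between -0.15 and -0.14 without MA PANC-1 3, PANC-1 1 or PANC-1 2.

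CXCL8 (chr4:73740541-73743716, plus strand) encodes interleukin 8, a chemokine that attracts neutrophils and a direct NF-kB target in epithelial cells. Its FPKM was 0.85, 0.64 and 0.60 in MA PANC-1 and 0.84, 0.82 and 0.51 in PANC-1, from estimated counts of 131, 111 and 95 and of 160, 146 and 83. The groups overlapped fully, since the highest sample was MA PANC-1 1 and the lowest PANC-1 3. The log2 fold change of -0.023 ± 0.29 (SE, 95% interval -0.71 to 0.67, edgeR adjusted p 0.983) is a 0.984-fold level with bounds of 0.610-fold and 1.59-fold.

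PANC-1 3 was often, but not always, the low sample of its group. Relative to the mean of PANC-1 1 and 2, it held 0.611 of CXCL8, 0.624 of TNFAIP3, 0.823 of NFKB2 and 0.852 of NFKBIA, but 1.03 of NFKB1, 1.12 of REL and 1.97 of RELA. Of the 10 genes 7 were lowest in PANC-1 3 among the untreated samples (70.0%), whereas 32.8% of all tested genes were. The median coefficient of variation of the 10 genes was 11.7% in PANC-1 and 14.6% in MA PANC-1, beside 12.5% and 18.7% for all genes tested.

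Promoter sequences from RefSeq (GRCh38.p14), covering 250 bases before to 50 after each transcript start, were read for 8 of the 10 genes, with RELB and NFKBIE missing from the table. The letters GGAANNNCC, the core shared by many NF-kB binding sites, were searched on both strands. They were present for 7 of the 8 genes, all but RELA, and in 20.1% (7042 of 35116) of all windows. Genes with several transcript starts had several windows, so a count per gene cannot be set directly against a share of windows. NFKB1 and NFKBIB held these letters in 1 of 2 windows, NFKB2 in 2 of 3 and RELA in 0 of 2, and the others had 1 window each. The longer consensus NF-kB site, which can contain these letters, was present for 6 of the 8, all but RELA and CXCL8, and in 11.3% (3956) of all windows. The stretches below are shown because they place matches to the same pattern, which has 3 free bases, beside the starts of a subunit, the feedback genes and CXCL8, in the direction of each gene with the match in capitals.
NFKB1 (chr4:102501295-102501335, plus strand): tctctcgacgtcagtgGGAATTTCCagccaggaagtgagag
NFKBIA (chr14:35404806-35404846, minus strand): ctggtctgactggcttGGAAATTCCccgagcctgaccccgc
TNFAIP3 (chr6:137867188-137867228, plus strand): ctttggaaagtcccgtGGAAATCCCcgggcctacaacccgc
CXCL8 (chr4:73740462-73740502, plus strand): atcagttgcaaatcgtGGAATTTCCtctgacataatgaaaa
The matches begin 48, 81, 55 and 91 bases before the start of NFKB1, NFKBIA, TNFAIP3 and CXCL8. TNFAIP3 has another match 67 bases before its start and NFKBIA another 242 bases before its start. A match describes the letters only, and no binding was measured.

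**Figure D3:**
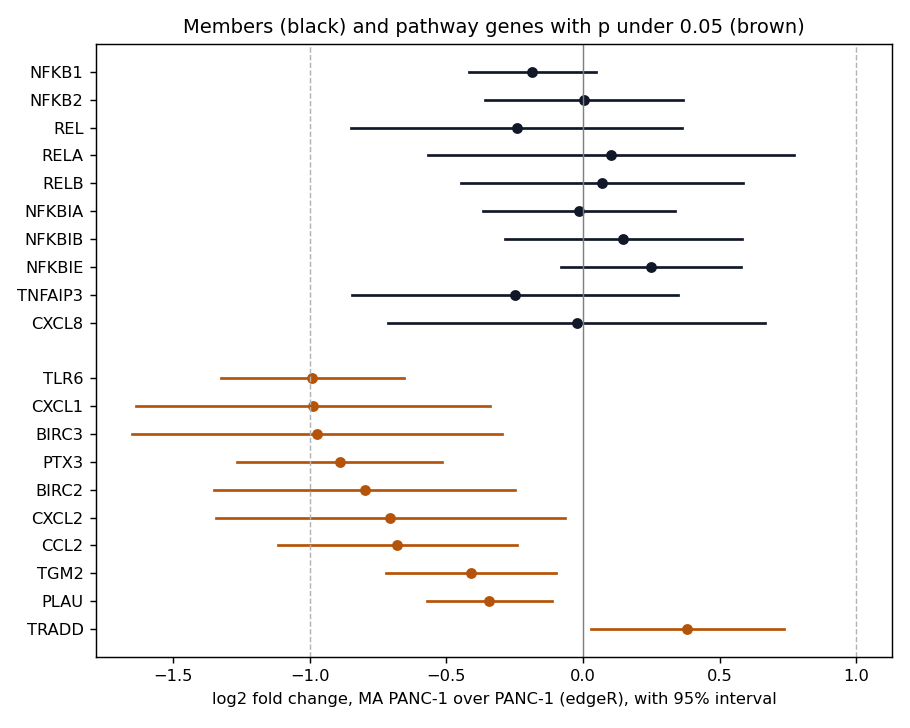
Log2 fold change of MA PANC-1 over PANC-1 from edgeR (points) with 95% intervals (lines) for the 10 genes (black) and for the listed pathway genes with an unadjusted p under 0.05 (brown), with dashed lines at 2-fold. Every black interval crosses 0 and lies inside 2-fold, whereas 9 brown points lie below 0 and 1, TRADD, above.

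The rest of the pathway was read from 9 lists of 114 genes. Of these 89 were tested, 2 (NFKBID and N4BP1) were not analysed here, and the others were too low. No listed gene passed an adjusted p under 0.05 in edgeR (0.0394% of all genes), DESeq2 passed 4 of them (BIRC2, TLR6, BIRC3 and PTX3) among 263 genes in all, and none passed the thresholds of the study (0.675% and 1.25%), whereas 10 had an unadjusted p under 0.05, 1 higher and 9 lower. That total is 11.2% of the genes tested, as it was of all genes (11.2%). Of all genes 5.37% were higher and 5.86% lower, a more even balance than 1 to 9, and this difference in balance was not tested. The median log2 fold change of the 89 genes was -0.04, 38 estimates being above and 51 below 0. In 18 genes (20.2%) all MA samples were below all untreated ones, beside 11.1% of all genes, and in 3 all were above, beside 8.79%. The counts moved with single samples: without MA PANC-1 3 there were 9 higher and 14 lower, in a fit where 8.39% of all genes were higher and 9.69% lower, and without MA PANC-1 1, MA PANC-1 2 or PANC-1 1 there were 0 higher.

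No gene of the IkB kinase or of the kinases around it passed a threshold. Of 14 kinases, all tested, 0 had an unadjusted p under 0.05 in edgeR in either direction, beside 5.37% higher and 5.86% lower of all genes, and the median log2 fold change was 0.0036. CHUK, one catalytic subunit of the IkB kinase, measured 3.83, 3.52 and 4.87 FPKM in MA PANC-1 and 5.12, 4.6 and 4.48 FPKM in PANC-1. IKBKB, the other catalytic subunit, measured 2.28, 2.23 and 2.30 FPKM against 2.00, 2.23 and 2.41 FPKM. The groups overlapped for both, and both were chosen for their role after their values were seen. IRAK1, a kinase of interleukin 1 and Toll-like receptor signalling, was the most abundant with 137, 164 and 146 FPKM against 146, 139 and 133 FPKM (log2 fold change 0.14 ± 0.11). In RIPK1, a kinase of TNF receptor signalling named after its values were seen, all MA samples (12.8, 11.2 and 11.3 FPKM) lay above all untreated ones (10.9, 10.3 and 10.5 FPKM), at an unadjusted edgeR p of 0.0876. The 3 further IkB proteins tested, led by NFKBIL1 at 13.4 to 17.5 FPKM in MA PANC-1 and 12.8 to 15.6 FPKM in PANC-1, also gave 0 calls, as did the 12 tested of 14 brakes. TNIP1, an A20 binding protein named after its values were seen, was the one brake without overlap, at 18.5, 19.4 and 16.8 FPKM against 22.9, 23.2 and 20.4 FPKM (unadjusted edgeR p 0.066). COMMD1, which promotes the breakdown of RELA, measured 20.2 to 22.6 FPKM against 19.1 to 20.3 FPKM and was the most abundant brake by the mean of all 6 samples, although TNIP1 was higher in every untreated sample.

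Among 13 adaptors and ubiquitin ligases, 1 gene was higher and 1 lower at an unadjusted p under 0.05 (15.4% together, beside 11.2% of all genes). TRADD, the adaptor of the TNF receptor, measured 7.94, 8.29 and 6.73 FPKM in MA PANC-1 and 6.06, 6.37 and 5.68 FPKM in PANC-1. All MA samples were above all untreated ones, with a log2 fold change of 0.38 ± 0.15 (SE, edgeR p 0.0376, adjusted p 0.435). That p was above 0.05 without any 1 of the samples other than MA PANC-1 3, reaching 0.0817 where MA PANC-1 2 was left out and 0.110 where PANC-1 3 was. BIRC2, the ubiquitin ligase cIAP1, measured 5.75, 5.69 and 6.44 FPKM in MA PANC-1 and 13.0, 6.74 and 12.3 FPKM in PANC-1. MA samples were all lower, but PANC-1 2 lay far nearer to them than the other untreated samples did, and the log2 fold change was -0.80 ± 0.23 (SE, edgeR p 0.0108, adjusted p 0.388). SQSTM1, the scaffold p62, was the most abundant, with 266, 280 and 231 FPKM against 224, 235 and 187 FPKM, with overlapping groups and a log2 fold change of 0.31 ± 0.14 (edgeR adjusted p 0.456).

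Receptors of the pathway were led by TNFRSF12A, which binds TWEAK, with 60.0, 73.3 and 100 FPKM in the MA samples and 80.5, 87.9 and 86.4 FPKM in PANC-1. Of 16 receptors 10 were tested, and 1 was lower at an unadjusted p under 0.05 (10.0%, beside 5.86% of all genes). This was TLR6, a Toll-like receptor for bacterial lipopeptides that works as a dimer with TLR2, with 1.71, 1.29 and 1.66 FPKM in the MA samples and 2.92, 3.31 and 3.25 FPKM in PANC-1. The groups were far apart relative to their spread, with a log2 fold change of -0.99 ± 0.14 (SE, 95% interval -1.33 to -0.66, edgeR p 0.0002, adjusted p 0.149). This was the lowest p among the 89 listed genes, and at 0.503-fold it stood just short of the fold threshold of the study. The log2 fold change of TLR6 passed that threshold with library totals alone (-1.02) and at a mean FPKM of at least 1 (-1.01). With single samples left out it ranged from -1.05 to -0.91, on both sides of the threshold. Its partner TLR2 did not exceed 0.021 FPKM in any sample, and was named after its values were seen.

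The ligands that usually start the pathway were at or near 0. TNF did not exceed 0.088 FPKM, IL1B was listed above 0 in 1 sample at 0.101 FPKM, and IL1A and IL33 had no count. Of 10 ligands 2 were tested, IL18 and TNFSF12, with 0 calls. IL18, an interleukin 1 family cytokine, was the most abundant, with 20.6, 14.3 and 27.4 FPKM in the MA samples and 19.1, 17.5 and 21.6 FPKM in PANC-1, overlapping between the groups. TNFSF12, which encodes TWEAK, measured 4.2, 4.76 and 4.26 FPKM in the MA samples and 6.37, 5.52 and 4.77 FPKM in the untreated samples, without overlap (log2 fold change -0.29 ± 0.18, unadjusted edgeR p 0.138). TNFSF12, TNF, IL1A, IL1B and IL33 were chosen for their role after their values were seen.

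**Figure D4:**
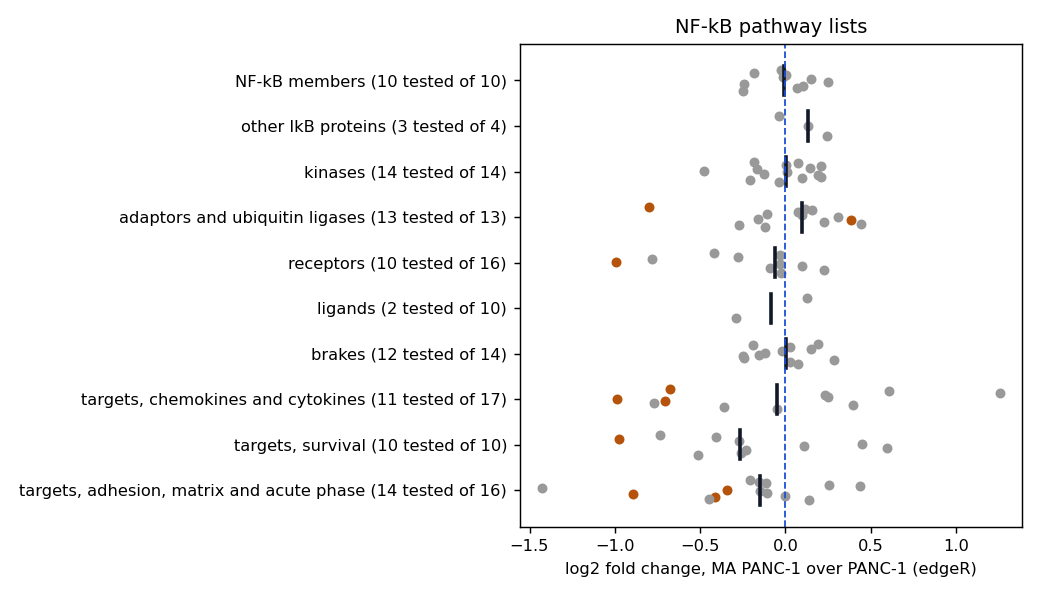
Log2 fold change (edgeR) of each tested gene in the 10 member genes and the 9 pathway lists, one row per list, with black bars for list medians, brown points for an unadjusted p under 0.05 and a dashed line at the median of all genes tested. The 7 brown points of the target lists all lie below 0, and the medians of those lists are -0.05, -0.27 and -0.15.

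The 3 lists of NF-kB targets, pooled after their values were seen, held 7 of the 9 lower genes. Of 43 targets 35 were tested, with 0 higher and 7 lower at an unadjusted p under 0.05 in edgeR (20.0% of those tested, beside 5.37% higher and 5.86% lower of all genes) and 0 at an adjusted p under 0.05, or 2 (BIRC3 and PTX3) in DESeq2. In 13 of the 35 (37.1%) all MA samples lay below all untreated ones, beside 11.1% of all genes. In 1 all lay above, beside 8.79% of all genes. This was IL11, named after its values were seen (log2 fold change 0.40, unadjusted edgeR p 0.064). The median log2 fold change of the 35 was -0.21, with 11 estimates above and 24 below 0. The highest estimate of all listed genes was also a target, the chemokine CCL5, with 0.482, 1.08 and 0.357 FPKM in the MA samples and 0.299, 0.112 and 0.419 FPKM in the untreated samples (log2 fold change 1.25 ± 0.62, unadjusted edgeR p 0.082). Its groups overlapped, and it was named after its values were seen. When each sample was left out in turn, from 5 to 9 targets were lower and 0 higher, except without MA PANC-1 3, where 4 were higher and 8 lower. Over all genes these fits gave 3.49% to 9.69% lower, and the fit without MA PANC-1 3 gave 8.39% higher. Without MA PANC-1 2 there were 7 lower and 0 higher, CXCL2 no longer among them. These targets have other inducers as well, and their count is not a measure of NF-kB activity. The lower targets were 3 chemokines, 1 survival gene and 3 genes of the matrix, protease or acute phase group. NFKBIA, TNFAIP3 and CXCL8 are targets by the same textbook criterion, but as members they were not in these lists. They passed no threshold, with log2 fold changes of -0.015, -0.25 and -0.023, that of TNFAIP3 being below the median of the lists. Their difference from the listed targets was not tested. The epithelial and duct markers had 6 of 6 tested estimates below 0 with a median log2 fold change of -0.18, and SOX9 alone among them had an unadjusted p under 0.05 (-0.32, edgeR p 0.0094). Of 4 tested fibroblast markers 3 estimates were below 0 with a median of -0.31, with COL3A1 at -0.33 without overlap of its groups, and the endothelial marker ENG, at 0.175 to 0.404 FPKM, had -0.55. The part of these markers in the lower targets was not tested.

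CXCL1, a neutrophil chemokine, measured 1.34, 1.14 and 2.12 FPKM in MA PANC-1 and 3.40, 3.38 and 2.54 FPKM in PANC-1. All MA samples were below all untreated ones, with MA PANC-1 3 and PANC-1 3 nearest to each other, and the log2 fold change was -0.99 ± 0.28 (SE, 95% interval -1.64 to -0.34, edgeR p 0.0085, adjusted p 0.388). CXCL2, its close copy, measured 1.05, 1.09 and 1.64 FPKM against 2.29, 2.42 and 1.64 FPKM. Here MA PANC-1 3 and PANC-1 3 were level, and the log2 fold change was -0.71 ± 0.27 (SE, edgeR p 0.0347, adjusted p 0.434), with p 0.0851 without MA PANC-1 2 and p above 0.05 also without MA PANC-1 1, PANC-1 1 or PANC-1 2. With the replicate block the edgeR p of CXCL2 was 0.0729, at a log2 fold change of -0.71. Reads of CXCL1, CXCL2 and CXCL3 may be exchanged between these closely similar genes, which was not tested, so their separate values are uncertain. CCL2, a chemokine for monocytes, measured 1.39, 1.5 and 1.77 FPKM in MA PANC-1 and 2.37, 2.54 and 2.74 FPKM in PANC-1. Its groups did not overlap, with a log2 fold change of -0.68 ± 0.19 (SE, edgeR p 0.0077, adjusted p 0.388). The most abundant gene of this list, the cytokine LIF, measured 16.7, 13.4 and 16.7 FPKM in MA PANC-1 and 16, 17.4 and 16.1 FPKM in PANC-1, with overlapping groups and a log2 fold change of -0.05. IL6, named after its values were seen, was listed above 0 in 1 sample, at 0.022 FPKM.

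BIRC3, the ubiquitin ligase cIAP2 and the neighbour of BIRC2 on chromosome 11, measured 2.74, 1.48 and 3.69 FPKM in MA PANC-1 and 6.11, 4.92 and 4.70 FPKM in PANC-1. The groups did not overlap and MA PANC-1 2 was the lowest, with a log2 fold change of -0.97 ± 0.29 (SE, 95% interval -1.65 to -0.30, edgeR p 0.0113, adjusted p 0.388). Without MA PANC-1 2 the log2 fold change was -0.71, at an unadjusted edgeR p of 0.0083. IER3, an early response gene and the most abundant of the 10 survival targets, measured 90.6, 92.6 and 95.6 FPKM in MA PANC-1 and 86.5, 100 and 78.4 FPKM in PANC-1. All 3 MA samples of IER3 lay within the untreated range. The survival list had 4 of 10 genes with all MA samples below all untreated ones, beside 11.1% of all genes, and a median log2 fold change of -0.27.

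PTX3, a secreted pattern recognition protein of the acute phase, measured 20.3, 14.6 and 20.3 FPKM in MA PANC-1 and 34.5, 40.3 and 29.8 FPKM in PANC-1. Every untreated sample was well above every MA sample, with a log2 fold change of -0.89 ± 0.16 (SE, 95% interval -1.27 to -0.52, edgeR p 0.0007, adjusted p 0.222). PLAU, the protease urokinase, measured 53.9, 55.1 and 54.5 FPKM against 71.5, 76.4 and 64.9 FPKM, a log2 fold change of -0.34 ± 0.10 (SE, edgeR p 0.0090, adjusted p 0.388). TGM2, a crosslinking enzyme of the matrix, measured 43.9, 52.3 and 41.1 FPKM against 60.3, 66.5 and 61.0 FPKM, a log2 fold change of -0.41 ± 0.13 (SE, edgeR p 0.0168, adjusted p 0.414), with p 0.0593 when MA PANC-1 1 was left out and 0.0544 when PANC-1 2 was. For both genes the groups did not overlap. SDC4, a cell surface proteoglycan and by the mean of all 6 samples the most abundant of the list (PLAU was higher in every untreated sample), measured 66.3, 62.3 and 58.6 FPKM in MA PANC-1 and 67.3, 67.7 and 57.4 FPKM in PANC-1, with overlapping groups and a log2 fold change of -0.0030.

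**Figure D5:**
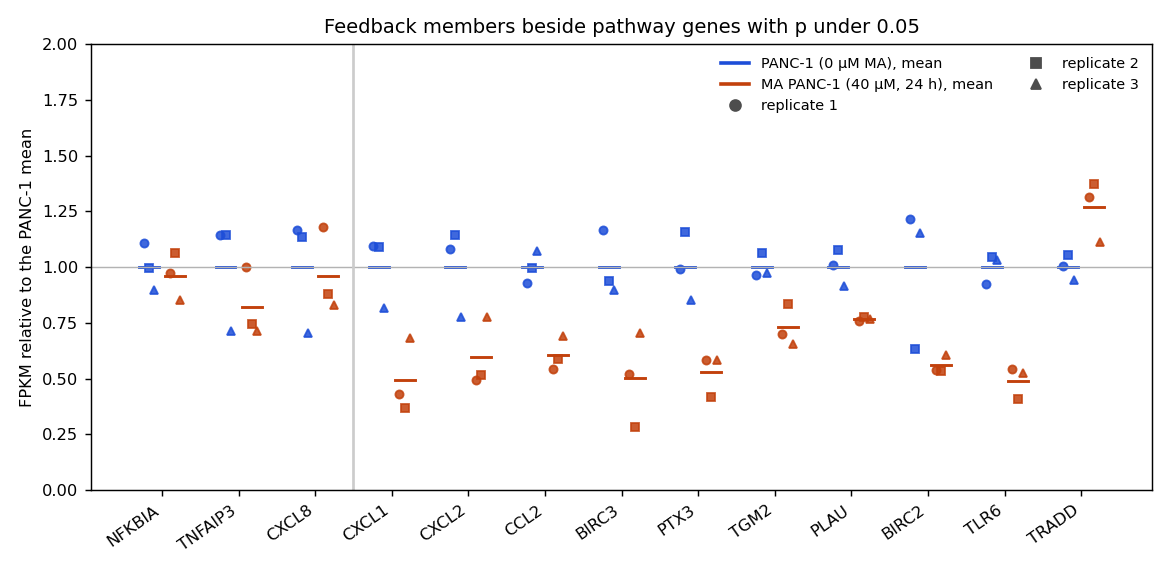
FPKM of each sample relative to the mean of the 3 untreated samples of that gene, for the feedback genes NFKBIA and TNFAIP3 and the target CXCL8 (left of the grey line) and for the 10 pathway genes with an unadjusted p under 0.05, with untreated samples in blue, MA treated samples in orange and bars for group means. The MA means of NFKBIA, TNFAIP3 and CXCL8 lie at 0.962, 0.820 and 0.962 of the untreated mean, and those of CXCL1, BIRC3, PTX3 and TLR6 at 0.493, 0.502, 0.528 and 0.491. Those of BIRC2, CXCL2, CCL2, TGM2 and PLAU lie at 0.559, 0.596, 0.608, 0.730 and 0.768, and that of TRADD at 1.27. The 10 pathway genes were picked by their p in these same samples, so their distance from the genes on the left is no test.

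In the RefSeq windows, 7 of the 10 pathway genes with an unadjusted p under 0.05 had a promoter sequence, and 4 of them (CXCL1, CXCL2, BIRC3 and PTX3) held GGAANNNCC and also the consensus NF-kB site. Of all windows, counted per window and not per gene, 20.1% held GGAANNNCC and 11.3% the consensus site. The stretches below are shown for comparison with NFKBIA, TNFAIP3 and CXCL8 above, which hold GGAANNNCC (CXCL8 without the consensus site) and passed no threshold.
CXCL1 (chr4:73869299-73869339, plus strand): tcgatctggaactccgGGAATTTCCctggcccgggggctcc
CXCL2 (chr4:74099248-74099288, minus strand): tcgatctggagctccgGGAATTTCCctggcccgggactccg
BIRC3 (chr11:102317269-102317309, plus strand): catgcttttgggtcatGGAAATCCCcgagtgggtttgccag
PTX3 (chr3:157436739-157436779, plus strand): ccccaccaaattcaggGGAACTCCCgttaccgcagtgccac
The capitals mark the match, in the direction of the gene. CXCL1 and CXCL2 share the 9 letters GGAATTTCC with CXCL8 and NFKB1, and BIRC3 shares GGAAATCCC with TNFAIP3. The match begins 78, 77, 199 and 95 bases before the start of CXCL1, CXCL2, BIRC3 and PTX3. CXCL1 and CXCL2 each have another match, on the opposite strand, 53 bases before the start.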

How the data were processed

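RNA was measured in 3 MA PANC-1 and 3 PANC-1 samples from stranded poly(A) libraries, grouped by the treatment in the labels. The authors deposited an FPKM value per gene and sample, in which 0.0001 stands for no reads, and an estimated count, a whole number as deposited, that was not normalized. The submitters' processing notes list cutadapt 1.9, HISAT2 2.0.4, StringTie 1.3.4d, edgeR and DESeq2. The genome build is not given in the sources used here, and 47519 of the 58825 gene positions (80.8%) equal those of GENCODE release 29 (GRCh38).

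Counts of genes averaging 0.1 FPKM or more were compared by edgeR 4.0.16 (quasi-likelihood, TMM, no covariate, biological coefficient of variation 0.307) in R 4.3.3, with Benjamini-Hochberg adjustment over 17774 genes. On simulated counts the test, at an adjusted p under 0.05, called 65 of 100 genes changed by a log2 fold of 1. It called 94 of 100 changed by a log2 fold of 2, and 7 unchanged genes wrongly. A change of 2-fold can thus be missed at that threshold. Shares of FPKM were compared by exact permutation over samples. Alternatives used limma 3.58.1, DESeq2 1.42.0, other filters and normalizations, halved or summed counts, a replicate block and leaving out each sample. Replicate numbers were not treated as pairs.

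The members, lists and tests were chosen with earlier results of these data known, and the promoter letters after the promoters were read. Named were all members and, from each list, genes with an unadjusted p under 0.05 (at most 4) and the most abundant gene, and the text marks genes added after their values were seen. Markers were read as lists, and 1 of them is not reported here. Counting error is not covered by the intervals separately, since the estimates are not whole reads.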

Additional observations from a re-analysis of the deposited data

How the results depend on the processing

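None of the 10 genes had an adjusted p under 0.05 or passed the thresholds of the study in any of the 16 alternatives, although REL and CXCL8 were not tested at a mean FPKM of at least 1. At an unadjusted p under 0.05, library totals alone gave 1 lower gene (NFKB1), and leaving out single samples gave from 0 to 1 higher and from 0 to 1 lower.

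NFKB2 took a log2 fold change below 0 with library totals alone (-0.039), limma on log2(FPKM + 0.1) (-0.041) or log2(FPKM + 1) (-0.039), a mean FPKM of at least 1 (-0.019), no filter (-0.0040) and the replicate block (-0.0049). With single samples left out, the range was -0.13 to 0.13 for NFKB2, -0.076 to 0.50 for RELA, -0.15 to 0.22 for RELB, -0.13 to 0.086 for NFKBIA, -0.073 to 0.28 for NFKBIB and -0.22 to 0.092 for CXCL8. Without a change of sign it was -0.52 to -0.046 for REL and -0.44 to -0.14 for TNFAIP3. The cause was not tested.

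Of all genes, DESeq2 called 263 at an adjusted p under 0.05, a mean FPKM of at least 1 called 12, the replicate block 0, and leaving out single samples 3 to 24. The thresholds of the study gave 22 higher and 22 lower with limma on log2(FPKM + 1), 43 and 50 at a mean FPKM of at least 1 and 189 and 380 without a filter. Leaving out single samples gave 191 to 401 lower, and at an unadjusted p under 0.05 551 to 1491 higher and 621 to 1722 lower, the highest counts being without MA PANC-1 3.

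In the pathway lists DESeq2 called 4 genes at an adjusted p under 0.05. The thresholds of the study gave 2 lower with library totals alone, a mean FPKM of at least 1 or the replicate block, 3 lower with limma on log2(FPKM + 0.1), 1 higher and 1 lower without a filter, and 0 to 1 higher and 0 to 4 lower with single samples left out. At an unadjusted p under 0.05, 2 were higher without a filter or with the replicate block, and 0 to 9 were higher and 7 to 14 lower with single samples left out. In all 16 alternatives BIRC2, TLR6, CXCL1, CCL2, BIRC3, PLAU and PTX3 had an unadjusted p under 0.05, TGM2 in 14 and CXCL2 and TRADD in 11. Same-numbered samples deviated together with correlations of 0.029, 0.050 and 0.072 and each correlated best with its own number, which did not reach the level set for pairing. Shares from counts per kilobase were not run, since the table gives no transcript length. At 83 to 160 counts per sample, the interval of CXCL8 did not exclude changes from 0.610-fold to 1.59-fold.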

Other observations

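The pathway annotation deposited with the table was drawn up without the lists above but shares genes with them, so it is not an independent view. It assigned 93 genes to NF-kappa B signaling, of which 64 were tested, 7 of them among the 10 genes described here. Of the 64, 32 estimates were above and 32 below 0. At an unadjusted p under 0.05 in edgeR, 2 genes were higher and 6 lower (12.5% together, beside 11.2% of all genes). Of all genes 5.37% were higher and 5.86% lower. The lower genes, named after their values were seen, were DDX58, PLAU, BIRC2, BIRC3, CXCL2 and ATM, and the higher ones were CSNK2A1 and TRADD. PLAU, BIRC2, BIRC3, CXCL2 and TRADD are the same genes, in the same fit, that were named from the lists above. DDX58, which encodes the viral RNA sensor RIG-I, measured 4.70, 3.30 and 4.75 FPKM in MA PANC-1 and 7.53, 7.04 and 7.07 FPKM in PANC-1, without overlap (log2 fold change -0.73 ± 0.14 SE, edgeR adjusted p 0.258). CSNK2A1, a catalytic subunit of casein kinase 2, measured 4.57, 3.88 and 4.77 FPKM against 3.50, 3.38 and 3.24 FPKM (log2 fold change 0.42 ± 0.09 SE, edgeR adjusted p 0.346). Of 110 genes annotated to TNF signaling 93 were tested. At an unadjusted p under 0.05, 4 were higher and 9 lower (14.0% together, beside 5.37% higher and 5.86% lower of all genes).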
